A study of Mus musculus with 18 samples.

Results

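Cd3d, Cd3e, Cd3g, Cd4, Cd8a, Cd8b1, Ptprc, Rag1, Lck and Bcl11b are genes by which thymocytes and T cells are recognised, and their reads were followed here in RNA-seq libraries of sorted thymic epithelial cells (TEC). The 10 genes were found by their symbols in the count files, which hold 27179 genes. All 10 passed the filter on low counts that left 19364 genes for testing. The libraries came from C57BL/6 mice labelled as Kat7 knockout (KO) and from wildtype (WT) mice of the same strain. Kat7 encodes a histone acetyltransferase. Each genotype gave 3 TEC subsets, namely medullary cells with high (mTEChi) or low (mTEClo) surface MHC class II and cortical cells (cTEC). The 6 groups were KO mTEChi, WT mTEChi, KO mTEClo, WT mTEClo, KO cTEC and WT cTEC, with 3 libraries in each. Every library was made from a pool of mice, and the subsets of 1 pool share their mice: pools 4, 5 and 6 were KO, and pools 1, 2 and 3 were WT. The age of the mice, the sort gates, the deleted exons and the cells with the deletion are not given in the sources used here. Batches of KO and WT pools cannot be told apart from the genotype.

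T cells recognise antigen through a receptor whose variable chains are carried by the invariant CD3 proteins and read out by the kinase Lck. Thymocytes assemble the receptor genes with the Rag recombinase, become positive for both CD4 and CD8 in the cortex, where cTEC test them and can enclose them in nurse cell complexes, and mature to CD4 or CD8 single-positive cells in the medulla. TEC themselves are epithelial, and mTEC are known for low transcription of many genes of other tissues. In bulk samples, fewer cells of a type and less RNA per cell cannot be told apart.

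Library totals ran from 3554089 to 20054360 counts. Levels are given as CPM (read counts scaled to a common library total) after TMM scaling. Kat7 lay at 0.765 to 4.16 CPM in the KO libraries and at 38.6 to 83.4 CPM in the WT libraries. The summed level of 8 TEC genes (Epcam, Krt8, Foxn1 and others) was 3937 to 9081 CPM over all libraries, against 53.6 to 437 CPM for the 10 thymocyte genes together. Adjusted p-values below are from edgeR's quasi-likelihood test with Benjamini-Hochberg adjustment over all 19364 genes, with 3 libraries per group and a threshold of 0.05. Among the cTEC libraries, KO pool 4 stood above and WT pool 3 below the others of their group in most of these genes. The KO effect on the 10 genes in cTEC, and its differences from the effect in the other subsets, were also fitted without both. The gene lists and the comparisons of subsets within a genotype were not. In every comparison "rose" and "fell" stand for genes past that threshold.

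The members lie on 6 chromosomes. In RefSeq's annotation of GRCm38.p6, which shares the coordinates of mm10, Cd3g (chr9:44969572-44980431), Cd3d (chr9:44981769-44987052) and Cd3e (chr9:44998735-45009663) are neighbours, and the starts of Cd3g and Cd3d face away from each other across 1338 bases. Cd8b1 (chr6:71322788-71337492) and Cd8a (chr6:71373427-71379171) lie 35935 bases apart, with Cd4 (chr6:124864693-124888247) on the same chromosome. The others are Ptprc (chr1:138062859-138175756), Rag1 (chr2:101638252-101649532), Lck (chr4:129548344-129573641) and Bcl11b (chr12:107910403-108004145). Lck overlaps the microRNA gene Mir8119, whose reads these unstranded libraries cannot separate from those of Lck.

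RefSeq promoter windows were at hand for 8 of the 10 members, the exceptions being Cd4 and Cd8b1. The 250 bases before 1 annotated start, on the strand of the gene and 5′ to 3′, are shown for 5 genes. Cd3d and Cd3g are the divergent neighbours whose KO over WT changes had the same sign in every subset. Cd8a stands for the CD8 genes, which rose in KO cTEC, and Rag1 for the recombinase. Bcl11b is the member whose level followed the others least. Capitals mark 3 short motifs searched on both strands, the ETS core AGGAA, the E box CAGNTG and the RUNX core TGTGGT.
Cd3d, chr9:44981536-44981785, plus strand: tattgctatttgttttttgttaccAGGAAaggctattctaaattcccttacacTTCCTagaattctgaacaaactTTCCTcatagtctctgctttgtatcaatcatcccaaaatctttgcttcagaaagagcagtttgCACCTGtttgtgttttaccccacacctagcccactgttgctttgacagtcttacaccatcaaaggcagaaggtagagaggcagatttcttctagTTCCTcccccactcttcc
Cd3g, chr9:44980432-44980681, minus strand: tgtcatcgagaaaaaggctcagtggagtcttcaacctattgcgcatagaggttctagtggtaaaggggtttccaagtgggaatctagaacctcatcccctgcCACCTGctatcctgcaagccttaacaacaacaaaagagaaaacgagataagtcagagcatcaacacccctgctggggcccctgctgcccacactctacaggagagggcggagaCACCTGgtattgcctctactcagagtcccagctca
Cd8a, chr6:71373177-71373426, plus strand: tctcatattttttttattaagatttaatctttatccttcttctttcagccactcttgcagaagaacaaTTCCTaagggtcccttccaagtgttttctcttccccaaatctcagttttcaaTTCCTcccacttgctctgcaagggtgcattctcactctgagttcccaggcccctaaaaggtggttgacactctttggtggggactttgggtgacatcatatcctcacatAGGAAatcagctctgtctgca
Rag1, chr2:101649533-101649782, minus strand: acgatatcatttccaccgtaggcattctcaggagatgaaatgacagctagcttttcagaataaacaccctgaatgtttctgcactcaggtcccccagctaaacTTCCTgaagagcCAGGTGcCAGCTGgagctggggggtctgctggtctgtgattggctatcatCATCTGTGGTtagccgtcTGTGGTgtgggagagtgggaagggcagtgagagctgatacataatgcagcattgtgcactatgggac
Bcl11b, chr12:108003415-108003664, minus strand: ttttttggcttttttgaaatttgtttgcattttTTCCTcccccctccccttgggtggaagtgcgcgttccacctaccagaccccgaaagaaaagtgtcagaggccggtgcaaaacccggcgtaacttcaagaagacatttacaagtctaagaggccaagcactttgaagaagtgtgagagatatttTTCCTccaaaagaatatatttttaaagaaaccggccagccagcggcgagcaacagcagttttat
The ETS core occurs 4 times in the Cd3d window, 3 times in that of Cd8a, 2 times in that of Bcl11b, once in that of Rag1 and not in that of Cd3g. The E box occurs 3 times for Rag1, 2 times for Cd3g and once for Cd3d. The RUNX core occurs 2 times for Rag1, and 1 of these shares bases with an E box. Of 32851 RefSeq windows of the same length, 60.3% hold the ETS core, 44.8% the E box and 14.0% the RUNX core on either strand. These are matches of letters in 1 window per gene.

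The largest change of the thymocyte genes was in cTEC, where 8 of the 10 rose in the KO and none fell. Of all genes tested in this comparison, 22.3% rose and 26.7% fell. The median log2 fold change of the 10 genes was 1.82, and that of all genes tested was -0.02. The 10 genes together summed to 437, 289 and 275 CPM in KO cTEC of pools 4, 5 and 6, against 158, 122 and 74.4 CPM in WT cTEC of pools 1, 2 and 3. The lowest KO sum lay above the highest WT sum.

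**Figure D1:**
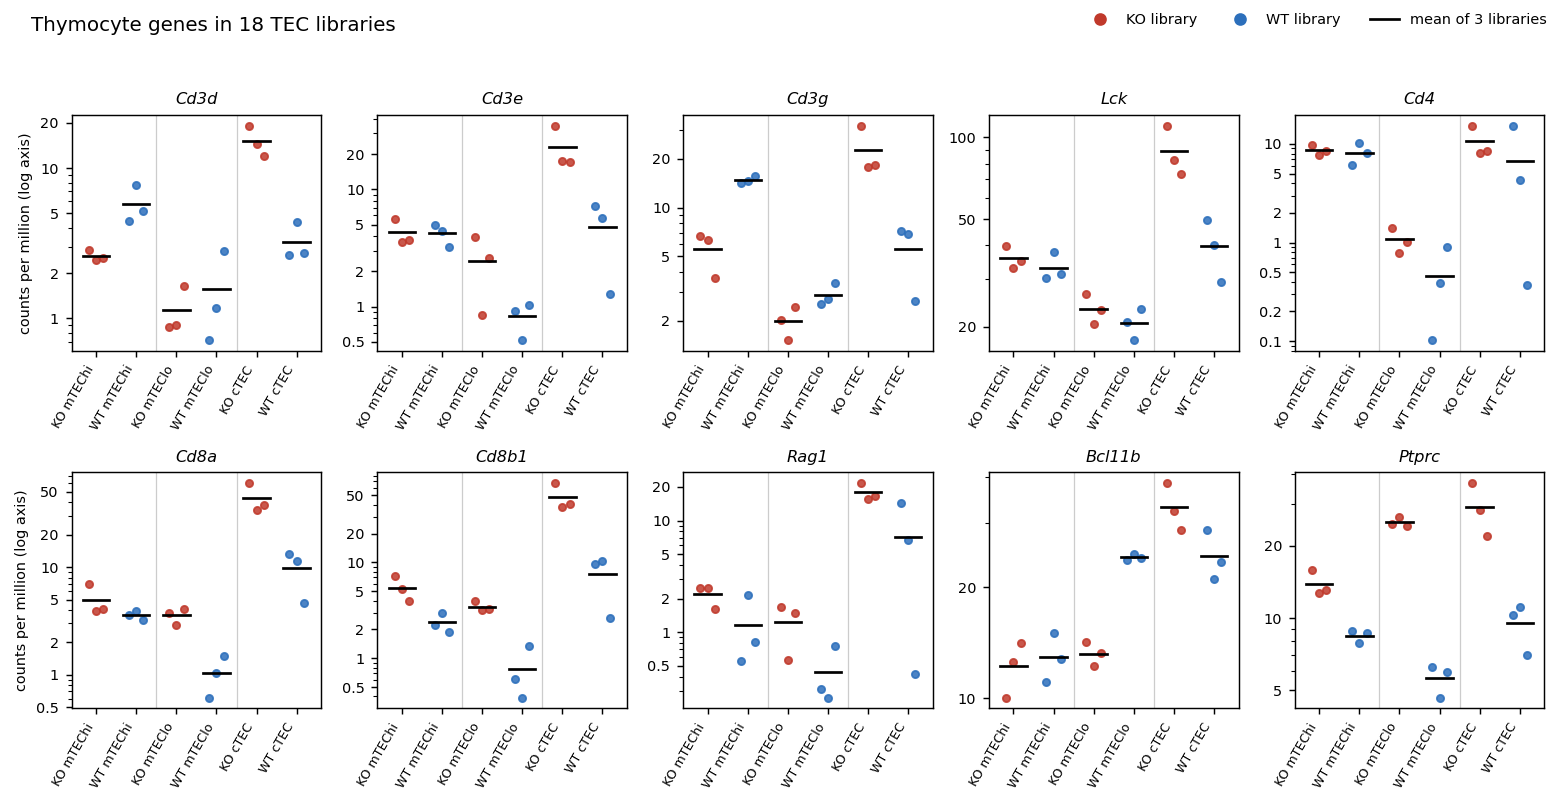
CPM of each of the 10 genes in the 18 libraries, on log axes that differ between genes; KO libraries are red, WT libraries blue, and black lines are means of 3 libraries. For Cd8b1 the 3 KO cTEC libraries lie at 37.9 to 67.2 CPM, above all others, while Bcl11b in mTEClo lies at 12.2 to 14.2 CPM in the KO and 23.7 to 24.6 CPM in the WT.

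The coreceptor genes Cd8a and Cd8b1 encode the chains of CD8, which binds MHC class I. Cd8b1 had 67.2, 37.9 and 40.6 CPM in KO cTEC, against 9.68, 10.2 and 2.61 CPM in WT cTEC. Cd8a had 60.5, 34.4 and 38.1 CPM in KO cTEC, against 13.2, 11.4 and 4.69 CPM in WT cTEC. For both genes every KO library was above every WT library. The log2 fold change was 2.70 ± 0.36 (SE) for Cd8b1, with an adjusted p of 5.21e-06, and 2.19 ± 0.31 for Cd8a, with an adjusted p of 9.64e-06. Cd4, whose protein binds MHC class II, did not pass the threshold. It had 15.4, 8.03 and 8.47 CPM in KO cTEC, against 15.2, 4.35 and 0.373 CPM in WT cTEC. 1 WT library lay within the range of the KO libraries and the other two below it, and the log2 fold change was 0.70 ± 0.62 with an adjusted p of 0.366.

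The CD3 genes encode the invariant chains of the receptor complex. Cd3d had 19.2, 14.5 and 12 CPM in KO cTEC, against 2.62, 4.35 and 2.72 CPM in WT cTEC. Cd3e had 35.0, 17.3 and 17.0 CPM in KO cTEC, against 7.28, 5.68 and 1.28 CPM in WT cTEC. Cd3g had 32.1, 17.9 and 18.2 CPM in KO cTEC, against 7.13, 6.90 and 2.66 CPM in WT cTEC. In none of the 3 genes did a KO library reach down to a WT library. How many of all genes tested separate 3 KO from 3 WT libraries in this way was not counted, here or in the other comparisons. Their log2 fold changes were 2.23 ± 0.36, 2.30 ± 0.48 and 2.03 ± 0.32, with adjusted p-values of 3.51e-05, 0.000565 and 2.88e-05. The kinase gene Lck, the most abundant member per length of transcript, had 111, 82.5 and 73.1 CPM in KO cTEC, against 49.4, 40.2 and 29.2 CPM in WT cTEC. It rose by 1.17 ± 0.18 on the log2 scale (adjusted p = 2.12e-05), and its groups did not overlap.

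Rag1, a subunit of the recombinase that assembles receptor genes, had 21.7, 15.7 and 16.6 CPM in KO cTEC, against 14.3, 6.74 and 0.426 CPM in WT cTEC. The KO libraries were all above the WT ones, yet the spread of the WT pools was wide and the log2 fold change of 1.34 ± 0.60 had an adjusted p of 0.0716. Ptprc encodes CD45, the phosphatase on the surface of nearly all leukocytes. It had 36.6, 28.3 and 22.0 CPM in KO cTEC, against 10.3, 11.1 and 7.03 CPM in WT cTEC, and rose by 1.61 ± 0.20 on the log2 scale (adjusted p = 1.66e-06). Bcl11b, a transcription factor of T cell commitment, had 38.4, 32.2 and 28.6 CPM in KO cTEC, against 28.7, 21.1 and 23.4 CPM in WT cTEC. Its ranges met, with the lowest KO library just below the highest WT library. Its log2 fold change of 0.44 ± 0.16 had an adjusted p of 0.0276, and the call was lost without WT pool 2 or 3 or KO pool 4 or 5 (adjusted p 0.0533 to 0.161) and in each of the 4 other fits tried (adjusted p 0.0513 to 0.0934).

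In KO cTEC the library of pool 4 was highest for all 10 genes, and in WT cTEC the library of pool 3 was lowest for all but Cd3d and Bcl11b. With both libraries left out, an alternative chosen after seeing the data, 7 of the 10 genes rose, and Bcl11b was the call lost (log2 fold change 0.26, adjusted p = 0.276). Of 19483 genes tested in that fit 3593 rose and 4933 fell. The log2 fold changes were then 1.95 for Cd8b1, 1.53 for Cd8a, 1.88 for Cd3d, 1.38 for Cd3e, 1.33 for Cd3g, 1.19 for Ptprc and 0.77 for Lck, with adjusted p-values of 0.00776 or lower. Rag1 stood at 0.60 (adjusted p = 0.237) and Cd4 at -0.26 (adjusted p = 0.65). The same libraries stood at the ends for 8 cTEC genes (Psmb11, Prss16 and others), which summed to 10392, 6765 and 6168 CPM in KO cTEC against 4181, 4130 and 2784 CPM in WT cTEC. Of these 8 genes 7 rose in KO cTEC. The list of 8 mTEC genes (Aire, Fezf2 and others) went the other way, 0 rising and 7 falling, with sums of 311 to 610 CPM in KO cTEC and 1358 to 1566 CPM in WT cTEC. Of 11 genes taken as signs of RNA quality or stress 1 rose and 4 fell in KO cTEC. The part of these lists in the rise of the thymocyte genes was not tested.

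The macrophage and dendritic cell, B cell, natural killer and erythroid lists did not rise in KO cTEC beside the thymocyte genes. Of all genes tested in this comparison 22.3% rose and 26.7% fell. Of 15 macrophage and dendritic cell genes tested, 0 rose and 6 fell, and the 18 genes of the list summed to 63.5 to 75.0 CPM in KO cTEC and 193 to 251 CPM in WT cTEC. Of 10 B cell genes 0 rose and 4 fell, with sums of 39.4 to 45.2 CPM in KO cTEC and 68.2 to 86.3 CPM in WT cTEC, led by Blnk, and Ms4a1 and Pax5 were at 0 in every KO cTEC library. Of 6 natural killer and innate lymphoid genes tested 0 rose and 2 fell, with sums of 1.42 to 2.77 CPM in KO cTEC and 4.93 to 6.28 CPM in WT cTEC. Ncr1, Klrb1c, Gzmb and Klre1 were at 0 in every KO cTEC library. All 4 erythroid genes tested fell, with sums of 9.31 to 17.6 CPM in KO cTEC and 26.5 to 113 CPM in WT cTEC, the highest being WT pool 3. Of 10 genes shared by most leukocytes 4 rose and 2 fell, and their sums overlapped, at 133 to 217 CPM in KO cTEC and 200 to 300 CPM in WT cTEC.

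**Figure D2:**
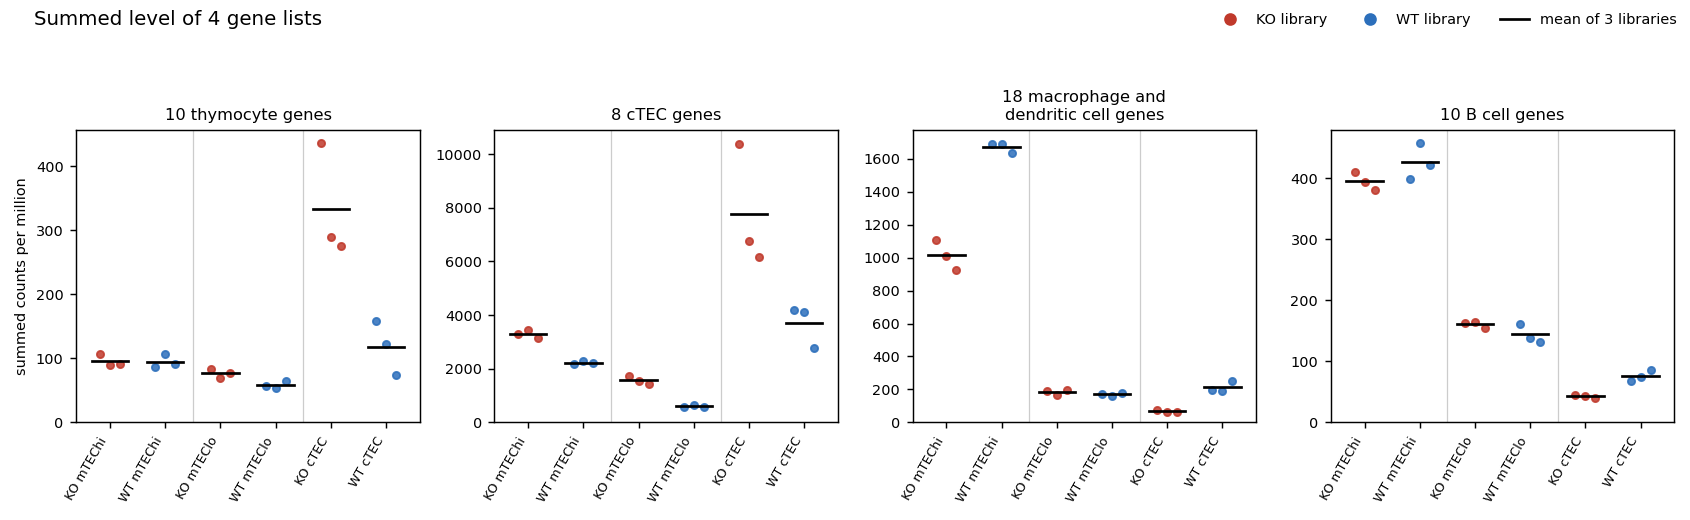
Summed CPM of the 10 thymocyte genes, 8 cTEC genes, 18 macrophage and dendritic cell genes and 10 B cell genes in each library, from 0 on axes that differ between panels; black lines are means of 3 libraries. KO cTEC libraries lie above WT cTEC libraries for the thymocyte and cTEC genes, and below them for the macrophage and dendritic cell genes (63.5 to 75.0 against 193 to 251 CPM) and the B cell genes.

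Other genes of the T lineage rose with the members in KO cTEC. Of 55 such genes 26 rose and 6 fell, with a median log2 fold change of 0.83, where 22.3% of all genes tested rose and 26.7% fell. All 6 genes of the receptor complex outside the CD3 set rose, and together they summed to 150, 95.5 and 75.7 CPM in KO cTEC, against 38.6, 38.4 and 15.2 CPM in WT cTEC. Among them Trbc2, the constant region of the receptor β chain, averaged 48.0 ± 17.4 CPM in KO cTEC and 14.6 ± 4.3 CPM in WT cTEC (SD, n = 3 each), with a log2 fold change of 1.72 ± 0.24. Its near-identical copy Trbc1 can share reads with it. The rest were Cd247, Trac, Trdc and Ptcra, the surrogate chain of the pre-T cell receptor. Both recombination genes, Rag2 and Dntt, rose. Dntt, which adds bases at receptor joints, averaged 40.4 ± 11.5 CPM in KO cTEC and 8.54 ± 4.93 CPM in WT cTEC.

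Of 8 genes of cortical CD4 CD8 double-positive thymocytes 7 rose in KO cTEC and none fell. Aqp11, a water channel gene of that list, averaged 15.0 ± 2.8 CPM in KO cTEC and 3.85 ± 1.88 CPM in WT cTEC. Of 19 genes of receptor signalling 8 rose and none fell, while of 11 T lineage transcription factors, which TEC or other cells also express in part, 3 rose and 3 fell. Of 8 genes of mature single-positive thymocytes 2 rose and 2 fell. Of 6 genes of immature thymocytes 2 rose and 2 fell as well, with a median log2 fold change of -0.004. For these 2 lists and the transcription factors the counts were not far from the shares of all genes tested, 22.3% rising and 26.7% falling. S1pr1, the receptor by which mature thymocytes leave the thymus, averaged 21.2 ± 4.5 CPM in KO cTEC and 5.63 ± 0.74 CPM in WT cTEC. Ccr7, the receptor that draws them to the medulla, averaged 3.40 ± 0.27 CPM in KO cTEC and 38.5 ± 6.9 CPM in WT cTEC, a log2 fold change of -3.50 ± 0.22. The adaptor gene Fyb, from the list of genes shared by most leukocytes, fell to 14.5 ± 4.1 CPM in KO cTEC, against 97.5 ± 24.5 CPM in WT cTEC, and Il7r, the interleukin 7 receptor chain, to 1.10 ± 0.21 CPM against 3.87 ± 1.62 CPM. All of these had adjusted p-values of 8.06e-05 or lower, except for Rag2 (0.0216), Trac (0.00549), Ptcra (0.00131), Trbc1 (0.00124), Trdc (0.00065) and Cd247 (0.000397).

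In mTEClo, 3 of the 10 genes rose in the KO and 1 fell. Of all genes tested there, 18.9% rose and 15.8% fell, so the count of members is not far from the background. The median log2 fold change of the 10 genes was 1.43, against 0.01 for all genes tested. Ptprc had 24.7, 26.4 and 24.3 CPM in KO mTEClo, against 6.23, 4.66 and 5.95 CPM in WT mTEClo. The KO libraries were close to each other and far above the WT ones, and Ptprc rose by 2.16 ± 0.22 on the log2 scale with an adjusted p of 2.63e-07. Cd8a had 3.79, 2.93 and 4.08 CPM in KO mTEClo, against 0.613, 1.04 and 1.49 CPM in WT mTEClo. Cd8b1 had 3.92, 3.15 and 3.26 CPM in KO mTEClo, against 0.613, 0.389 and 1.34 CPM in WT mTEClo. Neither CD8 gene overlapped between the groups, with log2 fold changes of 1.83 ± 0.45 for Cd8a (adjusted p = 0.00349) and 2.18 ± 0.55 for Cd8b1 (adjusted p = 0.00412). The WT values rest on 3 to 10 counts per library.

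Bcl11b went the other way in mTEClo. It had 14.2, 12.2 and 13.3 CPM in KO mTEClo, against 23.7, 24.6 and 24.1 CPM in WT mTEClo, with no overlap. The log2 fold change was -0.87 ± 0.17 with an adjusted p of 0.000427. Lck had 26.4, 20.4 and 23.1 CPM in KO mTEClo, against 20.8, 17.9 and 23.3 CPM in WT mTEClo, which overlapped, with a log2 fold change of 0.17 ± 0.19 (adjusted p = 0.512).

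The remaining 5 genes were low in mTEClo and did not pass the threshold there. Cd3e had 3.92, 0.845 and 2.60 CPM in KO mTEClo, against 0.919, 0.518 and 1.04 CPM in WT mTEClo, with a log2 fold change of 1.55 ± 0.66 and an adjusted p of 0.0763, and it passed under DESeq2 (0.0418) and when only the 2 mTEClo groups were fitted (0.037). Cd3d ranged from 0.879 to 1.63 CPM in KO mTEClo and 0.715 to 2.83 CPM in WT mTEClo. Cd3g ranged from 1.52 to 2.45 CPM in KO mTEClo and 2.55 to 3.42 CPM in WT mTEClo. The log2 fold changes of Cd3d and Cd3g were -0.38 ± 0.45 and -0.52 ± 0.38, of opposite sign to that of Cd3e. Cd4 ranged from 0.789 to 1.42 CPM in KO mTEClo and 0.102 to 0.892 CPM in WT mTEClo, and Rag1 from 0.563 to 1.69 CPM and 0.259 to 0.744 CPM. In the WT libraries Cd4 had 1, 3 and 6 counts, Rag1 3, 2 and 5, and Cd3e 9, 4 and 7, so that the depth limits what could be detected there.

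Depth and signs of RNA quality also differed between the mTEClo groups. Totals were 14411708 to 19356071 counts in KO mTEClo and 6565309 to 9815559 in WT mTEClo, and 9 of the 11 genes taken as signs of RNA quality or stress fell in KO mTEClo. The ribosomal precursor Rn45s took 0.307% to 0.420% of counts in KO mTEClo and 0.974% to 1.23% in WT mTEClo. The 18 macrophage and dendritic cell genes overlapped, at 164 to 195 CPM in KO mTEClo and 162 to 181 CPM in WT mTEClo, led by Lyz2, and Clec9a was at 0 in both groups. The 8 cTEC genes summed to 1420 to 1746 CPM in KO mTEClo and 557 to 636 CPM in WT mTEClo, and 7 of them rose. The 8 mTEC genes summed to 974 to 1339 CPM in KO mTEClo and 2202 to 2257 CPM in WT mTEClo, 2 rising and 3 falling. The 10 genes shared by most leukocytes summed to 383 to 450 CPM in KO mTEClo and 282 to 346 CPM in WT mTEClo, without overlap, 3 rising and 1 falling. The part of these differences in the values of the thymocyte genes was not tested.

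Of the 55 other T lineage genes 10 rose and 8 fell in KO mTEClo, near the shares of all genes tested there (18.9% and 15.8%). Of the 6 receptor complex genes 1 rose (Trdc, at 0.956 ± 0.599 CPM in KO mTEClo and 0.133 ± 0.151 CPM in WT mTEClo), and neither recombination gene passed the threshold. S1pr1 averaged 41.3 ± 1.1 CPM in KO mTEClo and 4.58 ± 1.41 CPM in WT mTEClo, a log2 fold change of 3.17 ± 0.21. Themis, a signalling protein of thymocyte selection, averaged 36.8 ± 2.3 CPM in KO mTEClo and 6.89 ± 2.58 CPM in WT mTEClo, and Il2ra, the interleukin 2 receptor α chain, 64.8 ± 7.2 CPM and 17.0 ± 1.3 CPM. Arpp21, a marker of double-positive thymocytes, fell to 1.82 ± 0.70 CPM in KO mTEClo, against 10.5 ± 3.6 CPM in WT mTEClo. Ptpn22 and Ccr7 fell as well, by 0.77 and 1.15 on the log2 scale. The adjusted p-values of these 6 genes were 0.000463 or lower.

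In mTEChi, 1 of the 10 genes rose in the KO and 2 fell, with 17.1% of all genes tested rising and 19.3% falling. The median log2 fold change of the 10 genes was 0.08, against -0.11 for all genes tested. Cd3g had 6.69, 6.30 and 3.68 CPM in KO mTEChi, against 14.1, 14.6 and 15.7 CPM in WT mTEChi. Cd3d had 2.87, 2.43 and 2.50 CPM in KO mTEChi, against 4.43, 7.72 and 5.15 CPM in WT mTEChi. Both were lower in every KO library, by 1.40 ± 0.34 on the log2 scale for Cd3g (adjusted p = 0.00324) and 1.18 ± 0.39 for Cd3d (adjusted p = 0.0245). The call of Cd3d was lost without WT pool 2 or any 1 of the KO pools (adjusted p 0.0514 to 0.145). Cd3e, the third CD3 gene, had 5.62, 3.57 and 3.68 CPM in KO mTEChi, against 4.98, 4.40 and 3.25 CPM in WT mTEChi, and its groups overlapped (log2 fold change 0.05 ± 0.55).

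Ptprc had 15.9, 12.8 and 13.1 CPM in KO mTEChi, against 8.86, 7.84 and 8.68 CPM in WT mTEChi. It rose by 0.72 ± 0.22 on the log2 scale (adjusted p = 0.0146), without overlap, and the call was lost without KO pool 4 or WT pool 2 (adjusted p 0.0569 and 0.055). Cd8b1 had 7.17, 5.24 and 3.97 CPM in KO mTEChi, against 2.22, 2.97 and 1.90 CPM in WT mTEChi. Every KO library was above the WT ones, but its log2 fold change of 1.19 ± 0.47 missed the threshold at an adjusted p of 0.0527, and 3 of the other fits put it below (adjusted p 0.00642 to 0.0403). The other 5 genes did not pass the threshold. Their log2 fold changes were 0.46 ± 0.39 for Cd8a, 0.80 ± 0.84 for Rag1, 0.06 ± 0.65 for Cd4, 0.11 ± 0.19 for Lck and -0.11 ± 0.18 for Bcl11b. In the WT mTEChi libraries Rag1 had 2, 18 and 6 counts and Cd8b1 8, 25 and 14, so that depth limits what could be detected. Cd4 stood at 7.82 to 9.68 CPM in KO mTEChi and 6.09 to 10.3 CPM in WT mTEChi, and Lck at 32.9 to 39.7 CPM and 30.2 to 37.7 CPM.

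Of the 55 other T lineage genes 11 rose and 7 fell in KO mTEChi, not far from the shares of all genes tested (17.1% and 19.3%). None of the 6 receptor complex genes passed the threshold. Thy1, a surface glycoprotein of thymocytes, fell to 2.27 ± 0.96 CPM in KO mTEChi, against 18.2 ± 2.5 CPM in WT mTEChi (log2 fold change -2.97 ± 0.40). The transcription factor gene Gata3 fell to 8.11 ± 0.91 CPM against 17.0 ± 2.3 CPM, and Ccr7 to 63.0 ± 9.7 CPM against 115 ± 14 CPM. Themis rose to 22.9 ± 1.9 CPM in KO mTEChi, against 3.78 ± 1.41 CPM in WT mTEChi. Tox and Cd1d1 rose by 1.18 and 0.76 on the log2 scale. The adjusted p-values of these 6 genes were 0.00149 or lower. In the same libraries the macrophage and dendritic cell list summed to 926 to 1110 CPM in KO mTEChi and 1636 to 1692 CPM in WT mTEChi, with 3 of 15 genes rising and 8 falling, led by Lyz2. The natural killer and innate lymphoid list summed to 46.1 to 53.7 CPM in KO mTEChi and 81.7 to 96.4 CPM in WT mTEChi, 0 of 6 genes tested rising and 2 falling. All 8 TEC genes rose, with sums of 6608 to 7699 CPM in KO mTEChi and 3937 to 4278 CPM in WT mTEChi, and of the 8 cTEC genes 6 rose and 1 fell. The genes shared by most leukocytes summed to 1795 to 1886 CPM in KO mTEChi and 1534 to 1603 CPM in WT mTEChi, 1 of 10 rising and 1 falling. Of the 11 genes of RNA quality or stress 0 rose and 4 fell. The part of these lists in the changes of the thymocyte genes was not tested.

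**Figure D3:**
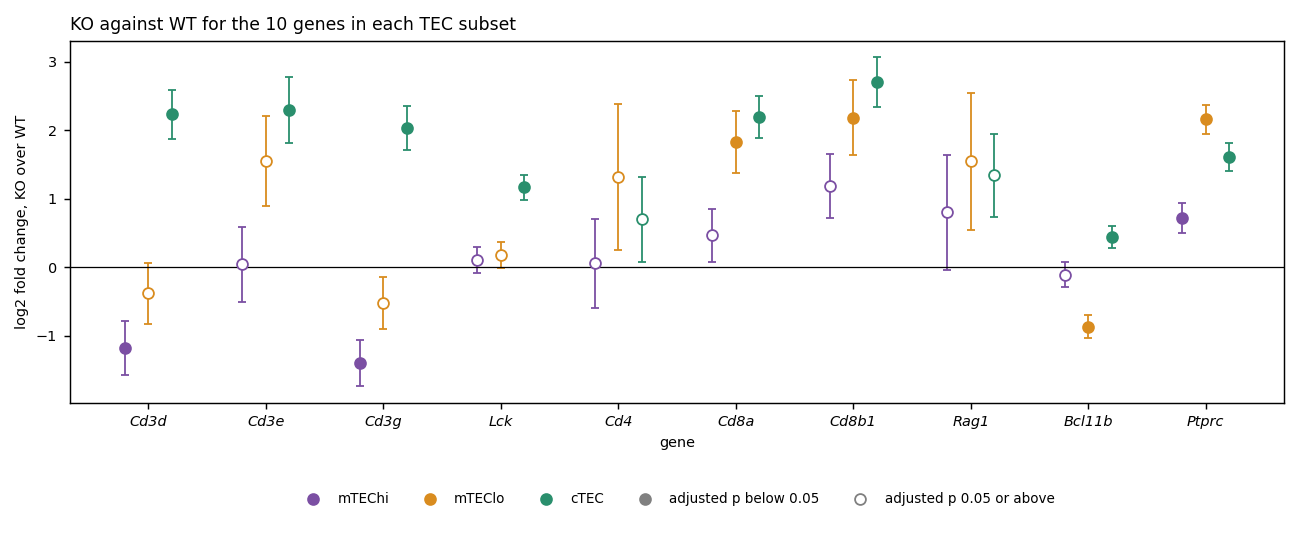
Log2 fold change of KO over WT for each of the 10 genes in mTEChi, mTEClo and cTEC, with bars of 1 SE; filled points have an adjusted p below 0.05. In cTEC all 10 points lie above 0 and 8 are filled, whereas Cd3d and Cd3g lie below 0 in mTEChi (-1.18 and -1.40) and Bcl11b in mTEClo (-0.87).

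Whether the KO effect differed between subsets was tested directly as the difference of the log2 fold changes. The effect in mTEChi was below that in cTEC for 6 of the 10 genes, where 31.5% of all genes tested differed in either direction. Cd3g differed by -3.43 ± 0.46 and Cd3d by -3.41 ± 0.53, both having fallen in mTEChi and risen in cTEC. Cd3e differed by -2.25, Cd8a by -1.73, Lck by -1.06 and Ptprc by -0.88, with adjusted p-values of 0.0225, 0.012, 0.00381 and 0.0267. With KO cTEC pool 4 and WT cTEC pool 3 both left out, Cd3e and Ptprc no longer passed (adjusted p = 0.0802 and 0.214). Cd3e also lost its call without KO cTEC pool 4, KO mTEChi pool 5 or 6 or WT mTEChi pool 2 (adjusted p 0.0528 to 0.0777), and Ptprc without KO cTEC pool 4, KO mTEChi pool 5 or 6, WT mTEChi pool 1 or 3 or WT cTEC pool 3 (adjusted p 0.0567 to 0.103), and without the low-count filter (0.0501). Cd8b1 differed by -1.51 (adjusted p = 0.0605) and passed with the mouse pool as a block (-1.61, adjusted p = 0.0186).

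The effect in mTEClo differed from that in cTEC for 4 genes, with 26% of all genes tested doing so. These were Cd3d (-2.61 ± 0.57), Cd3g (-2.55 ± 0.50), Bcl11b (-1.31 ± 0.23) and Lck (-0.99 ± 0.26), with adjusted p-values of 0.0022, 0.00078, 0.000301 and 0.00768. With KO cTEC pool 4 and WT cTEC pool 3 both left out, these genes kept their calls and Ptprc became a further one. Its difference was 0.95 (adjusted p = 0.00988), against 0.55 (adjusted p = 0.174) with all libraries. Between mTEChi and mTEClo the effect differed for 2 genes, with 13.5% of all genes tested doing so. For Ptprc the difference was -1.43 ± 0.31 (adjusted p = 0.00339), the rise being larger in mTEClo. For Bcl11b it was 0.76 ± 0.25 (adjusted p = 0.0442, and 0.06 with the mouse pool as a block), and its call was lost without pool 5 or 6 of either KO mTEC subset, WT mTEChi pool 1 or 3 or any 1 WT mTEClo library (adjusted p 0.0617 to 0.114). The pairs of differences share the libraries of a subset.

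The subsets were also compared within each genotype. In the WT, 8 of the 10 genes were higher in mTEChi than in mTEClo and Bcl11b was lower, where 32.6% of all genes tested were higher and 26.7% lower. The other immune lists were higher in WT mTEChi as well. There 15 of 15 macrophage and dendritic cell genes and 6 of 6 natural killer and innate lymphoid genes tested were higher. So were 8 of 10 B cell genes and 7 of 10 genes shared by most leukocytes, with 1 lower in each. Their median log2 fold changes were 3.52, 5.22, 2.76 and 2.10, against 1.75 for the thymocyte genes. Among the 10 thymocyte genes Cd4 showed the largest fold change, with 6.09, 10.3 and 8.13 CPM in WT mTEChi, against 0.102, 0.389 and 0.892 CPM in WT mTEClo (log2 fold change 4.27 ± 0.93, adjusted p = 0.000609). Its WT mTEClo values rest on 1, 3 and 6 counts, so the size of the change is uncertain. Cd3g followed with 14.8 ± 0.8 CPM in WT mTEChi and 2.90 ± 0.46 CPM in WT mTEClo (log2 fold change 2.37 ± 0.36). Rag1 did not pass the threshold. The calls of Cd8b1 and Ptprc depended on single libraries, being lost without WT mTEChi pool 2 or WT mTEClo pool 1 or 2 for Cd8b1 (adjusted p 0.0913 to 0.114) and without WT mTEChi pool 1 or 3 or WT mTEClo pool 2 or 3 for Ptprc (adjusted p 0.0621 to 0.133). Ptprc also missed the threshold without the low-count filter (0.0853) and with only the 2 groups fitted (0.0568). In the KO, 4 genes (Cd3d, Cd3g, Cd4 and Lck) were higher in mTEChi than in mTEClo and 1, Ptprc, was lower, with 23% of all genes tested higher and 22.4% lower. Of the same 4 immune lists 11 of 15, 3 of 6, 5 of 10 and 6 of 10 genes were higher in KO mTEChi, and 1, in the last list, was lower. Cd3d lost its call there without KO mTEChi pool 4 or KO mTEClo pool 4 or 5 (adjusted p 0.0679 to 0.0926). Ptprc stood at 13.9 ± 1.7 CPM in KO mTEChi and 25.1 ± 1.1 CPM in KO mTEClo, but at 8.46 ± 0.54 CPM in WT mTEChi and 5.61 ± 0.84 CPM in WT mTEClo.

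Against cTEC, mTEClo was low in these genes. In the WT 0 of the 10 were higher and 7 lower in mTEClo than in cTEC, where 13% of all genes tested were higher and 14.4% lower. The exceptions were Cd3d, Cd3g and Bcl11b, and Bcl11b had 24.1 ± 0.5 CPM in WT mTEClo and 24.4 ± 3.9 CPM in WT cTEC. Ptprc lost its call without WT mTEClo pool 2 or WT cTEC pool 2 (adjusted p 0.0726 and 0.0568) and with only the 2 groups fitted (0.094), while Cd3d and Cd3g passed with DESeq2 and without the low-count filter (0.0413 to 0.049). In the KO 0 were higher and 9 lower, all but Ptprc, with 21.2% of all genes tested higher and 15.8% lower. In the WT, 2 genes were higher in mTEChi than in cTEC, namely Cd3g (log2 fold change 1.42 ± 0.33, adjusted p = 0.00076) and Cd3d (0.86 ± 0.37, adjusted p = 0.0485, 0.054 with the mouse pool as a block, 0.0893 without the low-count filter and 0.104 with only the 2 groups fitted). The 4 lower ones were Cd8a, Cd8b1, Rag1 and Bcl11b, with 35.9% of all genes tested higher and 28.5% lower. Cd3d lost its call without WT mTEChi pool 2 or 3 or WT cTEC pool 1 or 3 (adjusted p 0.0594 to 0.253), and Rag1 without WT cTEC pool 1 (0.0821) and with only the 2 groups fitted (0.063). In the KO 0 were higher and 9 lower in mTEChi than in cTEC, all but Cd4, with 34% of all genes tested higher and 28.4% lower.

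Levels between genes were compared as CPM per kb of transcript (RPKM). Lck came first in every group but WT mTEChi, with 15.6 ± 1.5 RPKM in KO mTEChi, 10.1 ± 1.3 in KO mTEClo, 9.0 ± 1.2 in WT mTEClo, 38.6 ± 8.5 in KO cTEC and 17.2 ± 4.4 in WT cTEC. In WT mTEChi Cd3g and Lck did not differ beyond their spread, at 14.5 ± 0.8 and 14.4 ± 1.7 RPKM. Rag1 was last in every group, from 0.065 RPKM in WT mTEClo to 2.70 RPKM in KO cTEC. The second place went to Cd8b1 in KO cTEC (34.3 ± 11.4 RPKM, within the spread of Lck), Cd3g in KO mTEChi and WT cTEC, Ptprc in KO mTEClo (4.43 ± 0.19 RPKM) and Bcl11b in WT mTEClo (3.05 ± 0.06 RPKM, next to Cd3g at 2.83 ± 0.45 RPKM).

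The genes did not keep 1 ratio to each other across the libraries. Per kb, the ratio of Cd4 to Cd8a was 1.41 to 2.09 in KO mTEChi and 1.71 to 2.67 in WT mTEChi, but 0.225 to 0.257 in KO cTEC. In WT cTEC it differed between pools, at 1.17, 0.388 and 0.0804 for pools 1, 2 and 3. The ratio of Cd3g to Cd3e, whose products pair in the receptor complex, was 1.40 to 2.48 in KO mTEChi and 3.98 to 6.78 in WT mTEChi. It was 0.726 to 2.53 in KO mTEClo and 3.90 to 7.37 in WT mTEClo. The mTEClo values rest on 58, 15 and 51 Cd3e counts in the KO libraries and only 9, 4 and 7 in the WT libraries. In cTEC the ratio of Cd3g to Cd3e was 1.29 to 1.50 in the KO and 1.38 to 2.92 in the WT, which overlapped.

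The ratio of Bcl11b to Lck was 0.156 to 0.173 in KO mTEClo and 0.299 to 0.399 in WT mTEClo, and WT mTEClo lay above every other library. The ratio of Ptprc to Lck was 0.380 to 0.523 in KO mTEClo and 0.0845 to 0.163 in all other libraries. These values are descriptions without a test.

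**Figure D4:**
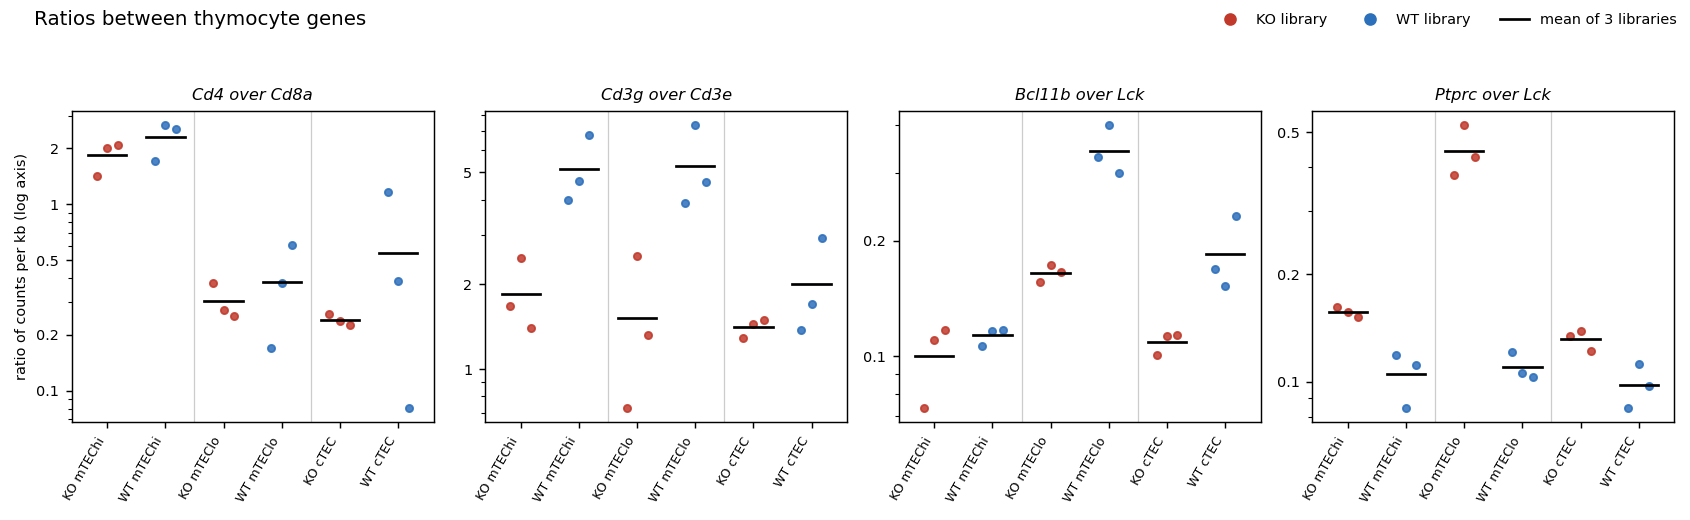
Ratios of counts per kb of transcript between 4 pairs of the genes in each library, on log axes that differ between panels; black lines are means of 3 libraries. Cd4 over Cd8a is above 1 in all mTEChi libraries, and KO mTEClo stands apart for Ptprc over Lck (0.380 to 0.523). Cd3g over Cd3e is higher in WT than in KO libraries of both mTEC subsets, on 4 to 9 Cd3e counts per WT mTEClo library.

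Over the 18 libraries, 3 of which share each pool, the log2 level of Lck followed the mean of the other 9 genes most closely (Pearson's r = 0.985). Cd3e, Cd8a, Cd8b1 and Rag1 had r of 0.926 to 0.964, Cd3d 0.852, Cd3g 0.779 and Cd4 0.716. Ptprc at 0.531 and Bcl11b at 0.393 followed least. Among 16683 other genes with a mean of at least 1 CPM, the 8 with the highest r to the mean of the 10 members were Tbxa2r (0.970), Dntt (0.967), Cd27 (0.946), Trbc1 (0.946), Sh2d1a (0.940), Scnn1g (0.928), Sec23a (0.928) and Ccr9 (0.925). Dntt, Cd27, Trbc1, Sh2d1a and Ccr9 are on the T lineage lists. Tbxa2r encodes the thromboxane receptor, Scnn1g a subunit of the epithelial sodium channel and Sec23a a coat protein of secretory vesicles. Scnn1g averaged 38.3 CPM in KO cTEC and 14.2 CPM in WT cTEC. These r describe the libraries, and differences between the 6 groups make up much of them.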

How the data were processed

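RNA of TEC subsets sorted from pools of KO and WT mice was reverse transcribed and amplified with the SMART-Seq v4 kit, made into Nextera XT libraries and sequenced in paired ends on an Illumina NextSeq, per the labels' protocols. These kits do not record strand. The deposited values are raw counts of reads per gene, whole numbers with no normalization, which the authors made with featureCounts on mm10, per the submitters' processing notes. The aligner and the counting options are not given in the sources used here. The 18 files were equal to the deposited table of the whole series, and no 2 libraries were identical. The libraries carry no molecular identifiers, so depth covers counting error only, and p-values measure the spread between 3 pools of mice per group.

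The tests used edgeR 4.0.16 in R 4.3.3 (filterByExpr with a minimum count of 10, TMM scaling, glmQLFit and glmQLFTest on 6 group means over all 18 libraries, 12 residual degrees of freedom, Benjamini-Hochberg adjustment, threshold 0.05). The SE is the fitted log2 fold change divided by the square root of the F statistic. The steps were tested on simulated data. RPKM is the same CPM per kb of the gene length in the files. For likeness, 0.5 was added to CPM before log2. Alternatives were RLE scaling, no low-count filter, DESeq2 1.42.0, a fit of the 2 groups compared, each library left out in turn, and the mouse pool as a block for comparisons within a genotype. Subsets of 1 pool come from the same mice by the label of the mouse pool, which is what pairs them, although the deviations of the 18 same-pool pairs correlated at only -0.0156 to 0.323 (median 0.0875). All 10 members are named. Other T lineage genes are named as the 3 with the smallest adjusted p in each direction, and genes of complete small lists or with few calls were added after their values were seen. Cd28, Lat and Cd2 were added outside this rule, from the 19 receptor signalling genes, also after their values were seen. The members and lists were chosen with earlier results of these data known. Promoter windows are RefSeq's for GRCm38.p6.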

Additional observations from a re-analysis of the deposited data

Results flagged for a closer look

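For 12 of 30 gene and subset pairs the KO effect differed between 2 subsets by a test of the difference itself (edgeR's quasi-likelihood test, Benjamini-Hochberg adjustment over all 19364 genes). Between mTEChi and cTEC the differences of log2 fold change were -3.43 for Cd3g, -3.41 for Cd3d, -2.25 for Cd3e, -1.73 for Cd8a, -1.06 for Lck and -0.88 for Ptprc. For Cd3d and Cd3g the effect had opposite signs in the 2 subsets, while Cd3e, the third gene of the cluster on chromosome 9, rose in KO cTEC and stood at 0.05 ± 0.55 in mTEChi. Between mTEClo and cTEC they were -2.61 for Cd3d, -2.55 for Cd3g, -1.31 for Bcl11b and -0.99 for Lck. Between mTEChi and mTEClo they were -1.43 for Ptprc and 0.76 for Bcl11b. Of all genes tested 31.5%, 26% and 13.5% differed in these 3 comparisons, where 6, 4 and 2 of the 10 members did. The Bcl11b difference between mTEChi and mTEClo was not called with the mouse pool as a block (adjusted p = 0.06), and those of Cd3e and Ptprc between mTEChi and cTEC were not called with KO cTEC pool 4 and WT cTEC pool 3 left out (adjusted p = 0.0802 and 0.214). In that fit the Ptprc difference between mTEClo and cTEC became a call (0.95, adjusted p = 0.00988). Of the differences not called with all libraries, 5 changed sign there. Comparisons with the same subset share libraries, so the 12 are not independent. What sets these differences was not tested.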

How the results depend on the processing

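The tests of KO against WT gave 30 values for the 10 genes (3 subsets). No called value changed sign in any alternative. Values that were not called changed sign as follows: Cd3e in mTEChi was -0.0101 with DESeq2 and -0.000215 with RLE scaling, against 0.05 in the main analysis, and Cd4 in cTEC was -0.26 without KO cTEC pool 4 and WT cTEC pool 3. With 1 library left out, Bcl11b in mTEChi ranged from -0.194 to 0.0385, Cd3d in mTEClo from -0.77 to 0.31, Cd3e in mTEChi from -0.18 to 0.20 and Cd4 in mTEChi from -0.077 to 0.28. In mTEChi the number of members that rose was 1, and it was 2 with DESeq2, 2 without the low-count filter and 2 with only the 2 groups fitted, the addition being Cd8b1. Of all genes tested, 3305 of 19364 rose in the main analysis and 2981 of 19364 with DESeq2. Without the filter 3588 of 24856 rose, and with only the 2 groups 3964 of 17338. The members that rose ranged from 0 to 2 with 1 library left out, and those that fell from 1 to 2. Of all genes 2394 to 3140 then rose and 2436 to 2964 fell. The number higher in WT mTEChi than in WT cTEC was 2, and it was 1 without the filter, 1 with only the 2 groups fitted, 1 with the replicate block and 1 to 2 with 1 library left out, the call lost in these 3 fits being Cd3d. Of all genes tested, 6960 of 19364 were higher in the main analysis and 7190 of 19364 with the block. Without the filter 7600 of 24856 were higher, and with only the 2 groups 5637 of 18264. Over all subset comparisons the fits of only 2 groups lost 4 calls and gained 1 (Cd8b1, KO mTEChi over mTEClo, 0.76 with adjusted p = 0.032), the fit without the filter lost 2 and gained 2, and DESeq2 gained 2, as given in the report. The number with a different KO effect in mTEChi and mTEClo was 2, and it was 1 with the replicate block and 1 to 2 with 1 library left out. Of 19364 genes tested 1301 had a higher and 1312 a lower effect in mTEChi in the main analysis. With the block these were 1546 and 1568. Besides Cd3d, Bcl11b and Cd8b1, whose values stand in the report, the mouse pool as a block changed no call. The summed level of the members in KO over WT cTEC was 2.82-fold, 2.61-fold on unscaled totals and 3.40-fold per kb. In the fits of only 2 groups some members were filtered out, which left 29 of 30 KO against WT values. The cause of these changes was not tested. Depth limits Cd4, Rag1, Cd3e and the CD8 genes in WT mTEClo, with 1 to 10 counts per library. Counts were also low in WT mTEChi pool 1, with 2 for Rag1 and 8 for Cd8b1. In WT cTEC pool 3 Cd4 had 7 counts and Rag1 had 8.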

Other observations

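Per kb, Cd8b1 over Cd8a was 2.36 to 2.45 in KO cTEC and 1.23 to 1.99 in WT cTEC, and 2.13 to 2.93 in KO mTEChi and 1.29 to 1.67 in WT mTEChi, so that the KO libraries lay above the WT ones in both subsets. In mTEClo the ratio overlapped, at 1.77 to 2.38 in the KO and 0.829 to 2.21 in the WT. Rag1 over the sum of the 3 CD3 genes was 0.0463 to 0.0644 in KO cTEC and 0.0115 to 0.153 in WT cTEC. In mTEChi it was 0.0298 to 0.0359 in the KO and 0.00403 to 0.0139 in the WT, without overlap, on 11 to 33 Rag1 counts per KO library and 2 to 18 per WT library. The ratio of Cd3e to Lck was 0.337 to 0.506 in KO cTEC and 0.0700 to 0.236 in WT cTEC. These ratios are descriptions and were chosen with the values known.

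Other genes of receptor signalling differed in where they passed the threshold, without a test of the difference between subsets. Those named here were picked after their values were seen. Cd28, a costimulatory receptor of T cells, averaged 23.9 ± 2.9 CPM in KO cTEC and 7.33 ± 4.74 CPM in WT cTEC, 13.4 ± 3.0 CPM in KO mTEClo and 5.64 ± 0.71 CPM in WT mTEClo, and 7.45 ± 0.58 CPM in KO mTEChi and 3.13 ± 0.73 CPM in WT mTEChi, so that it rose in all 3 subsets. Lat, an adaptor of receptor signalling, averaged 18.5 ± 4.0 CPM in KO cTEC and 5.65 ± 1.29 CPM in WT cTEC, a rise of 1.71 ± 0.34 on the log2 scale, and it did not pass the threshold in mTEClo or mTEChi. Cd2, an adhesion receptor, fell in KO mTEChi to 1.79 ± 0.44 CPM, against 4.27 ± 1.01 CPM in WT mTEChi.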
